A study of Mus musculus with 10 samples.

Results

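The Eif genes encode the factors that start translation of messenger RNA on the ribosome. They were taken from the deposited kidney table as all rows whose gene symbol begins with Eif1 to Eif6, leaving out the Eif2ak kinases and the pseudogenes. Of 55359 genes in the table, 66 carried such a symbol. After removal of 10 pseudogenes and 4 kinases, 52 members were kept, and 50 of them entered the tests. The other members, Eif4e1b and Eif2c5, had 0 counts in every library. Eif2c5 is an older Argonaute-type name that the rule picks up by its spelling, and it is no initiation factor.

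Whole kidneys of male mice were sequenced after sham surgery (5 libraries) or after 30 min of renal ischaemia and 24 h of reperfusion (IRI, 5 libraries). No strain, age, genotype or interval between sham operation and sampling is given in the labels. The series title speaks of dietary methionine deprivation, but no diet is given for any of these mice, and the comparison here is of surgery alone. Nothing in the labels states that each library came from a separate animal, and p-values then describe the spread between libraries, which may be technical.

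Library totals were 13147899 to 18603272 counts. Sham and IRI libraries lay apart on the first principal component (80.2% of variance), and IRI replicate 1 stood alone on the second at -47.6. The tissue label matched its markers: 7 proximal tubule genes summed to 1973 to 2488 FPKM (counts scaled to exonic length and to the library total) in sham, and to 228 to 966 FPKM in IRI, where 7 of 7 were lower. Markers of tubular injury went from 0.62 to 3.05 FPKM in sham to 1723 to 2789 FPKM in IRI (3 of 3 higher). Neutrophil markers rose from 0.94 to 3.13 FPKM to 18.99 to 101 FPKM (4 of 4 tested higher, with the listed genes Mpo, Elane and Ly6g under the filter on low values). The 4 T and NK cell markers and the 4 B cell markers were all under the filter. The part of these shifts in cell content in the results that follow was not tested. In a whole kidney, fewer cells of a type and less RNA per cell cannot be told apart.

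As background, translation of a capped messenger begins when eIF4E binds the cap and recruits the scaffold eIF4G and the helicase eIF4A, together called eIF4F. The small ribosomal subunit arrives with eIF1, eIF1A, eIF3, eIF5 and the ternary complex of eIF2, GTP and initiator tRNA, and scans to a start codon. eIF2B then recharges eIF2 with GTP. Cells control the process at 2 well-known points: kinases phosphorylate the alpha subunit of eIF2, which blocks eIF2B and favours a few messengers such as that of Atf4, and the 4E-BP proteins, when not phosphorylated by mTORC1, keep eIF4E away from eIF4G. Much of this control acts on proteins and leaves no trace in transcript levels, which are all that was measured here.

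Most Eif transcripts that changed were higher after IRI. By edgeR's quasi-likelihood test with p-values adjusted over all 13324 genes tested, 29 of the 50 tested members (58%) rose and 6 (12%) fell, at an adjusted p under 0.05, with 15 not called. Among all tested genes 34.5% were called higher and 32.4% lower. The median log2 fold change was 0.31 in the members and 0.05 in all tested genes, whose middle 50% ran from -0.58 to 0.54. At a change of at least 1.5-fold, 13 members were higher and 1 was lower, against 22.0% and 23.9% of all genes: the members' calls were mostly of modest size. FPKM values of the groups did not overlap in 35 members that were higher in IRI (70%) and in 1 that was lower, while 36.7% and 18.6% of all genes were so separated. These counts depend on the scaling. With library totals in place of TMM factors, which moved the median of all genes by 0.25, 37 members were higher and 2 lower, so that 94.9% of members' calls were higher instead of 82.9% (all genes, 66.8% instead of 51.6%). Of all 13324 tested genes, 6322 were then called higher and 3139 lower, against 4599 and 4320 with TMM factors. Without IRI replicate 1, 28 members were higher and 7 lower.

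The members together held 0.584% to 0.630% of the counts in sham libraries and 0.824% to 0.918% in IRI libraries. Their summed FPKM was 1374 to 1457 in sham and 1982 to 2313 in IRI, with no overlap.

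**Figure D1:**
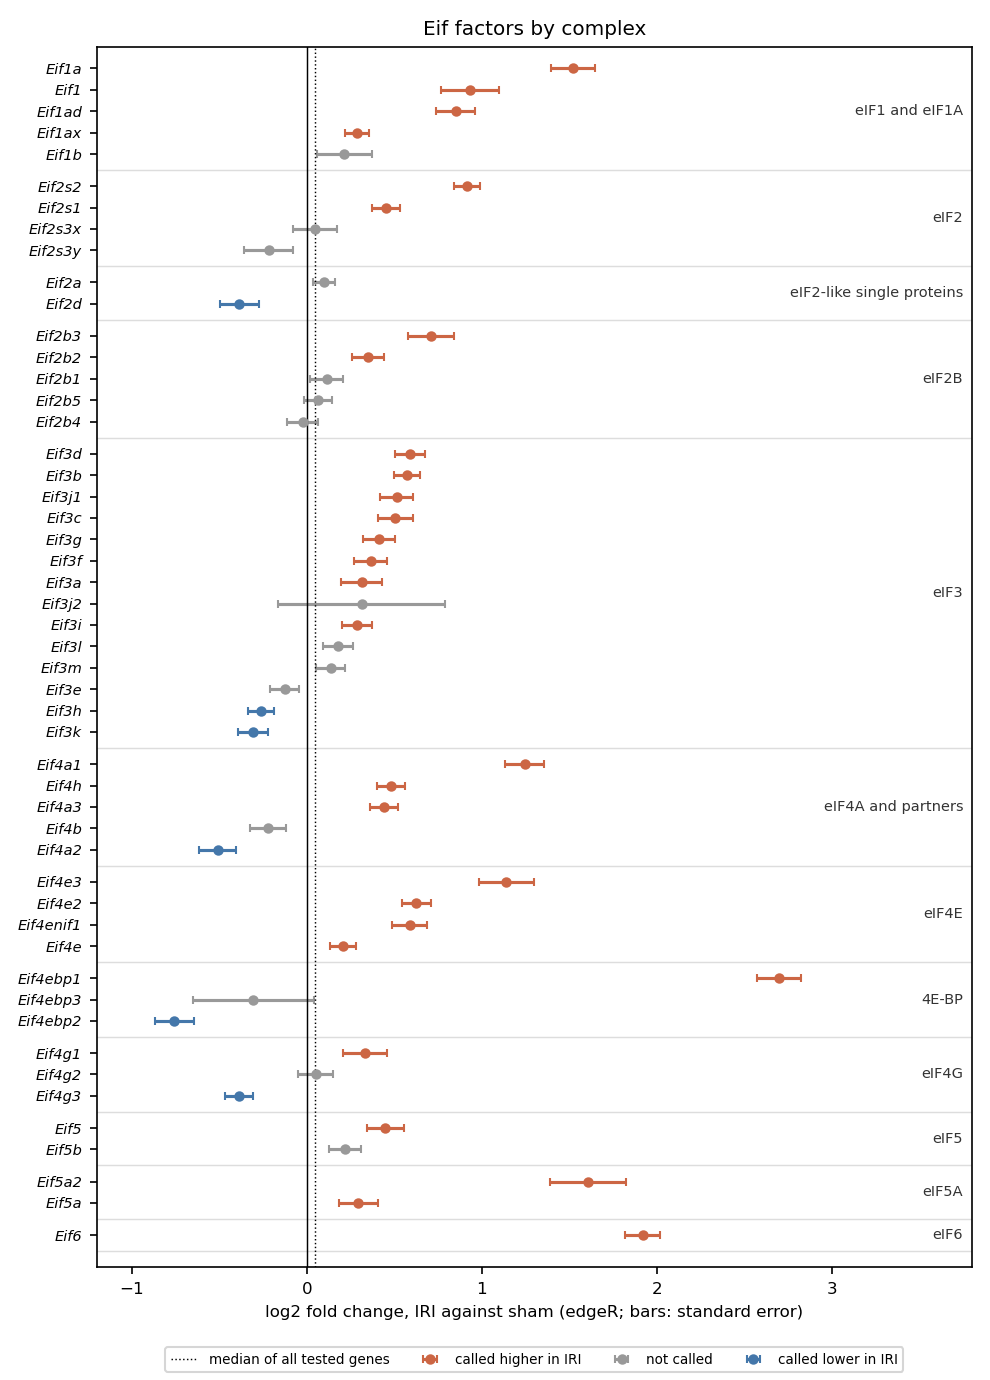
Log2 fold change of IRI against sham (edgeR, horizontal axis; bars are standard errors, n = 5 libraries per group) for the 50 tested Eif members, grouped by complex. Orange points were called higher, blue points lower and grey points were not called at an adjusted p under 0.05; the dotted line is the median of all tested genes (0.05). Eif4ebp1 lies farthest to the right at 2.70, and the 6 blue points are spread over eIF2-like proteins, eIF3, eIF4A, 4E-BP and eIF4G.

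The 4E-BP transcripts, whose proteins restrain eIF4E, parted: Eif4ebp1 rose 6.49-fold, Eif4ebp2 fell, and Eif4ebp3 was not called. Per-library values below are FPKM in the order of replicates 1 to 5. Eif4ebp1 (ENSMUSG00000031490, chr8:27750357-27766702, GRCm39), which encodes the best-studied mTORC1-controlled inhibitor of eIF4E, stood at 4.38, 3.04, 4.27, 4.55 and 4.20 in sham and at 23.5, 35.1, 35.4, 33.5 and 30.7 in IRI. All IRI values lay above all sham values, and replicate 1 was the lowest of the IRI libraries. The log2 fold change was 2.70 ± 0.13 (SE, adjusted p = 2.88e-08 by edgeR), higher than in 98.1% of all tested genes, and 2.63 to 2.76 when any 1 library was left out.

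Eif4ebp2 (chr10:61264270-61288440), the paralog known mainly from brain, was at 41.2, 36.2, 37.7, 36.5 and 31.2 FPKM in sham and at 20.0, 24.5, 31.2, 26.4 and 27.1 in IRI. The groups came close but did not overlap, with 31.23 as the lowest sham and 31.17 as the highest IRI value. Its log2 fold change was -0.76 ± 0.11 (adjusted p = 6.98e-05, edgeR), a fall of 1.69-fold and the only fall of at least 1.5-fold among the members. Eif4ebp3 ranged from 3.56 to 7.45 FPKM in sham and from 2.49 to 8.67 in IRI, with a log2 fold change of -0.31 ± 0.35. IRI replicate 1 had the highest Eif4ebp3 value, and without it Eif4ebp3 was called lower at -0.70. A same-strand gene that overlaps it, AC115631.1, held 282% of its count, so reads could be split between them.

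The balance of the paralogs changed more than either gene alone. Ratios of the paralog pairs are of FPKM + 0.1. The ratio of Eif4ebp1 to Eif4ebp2 was 0.0865 to 0.137 in sham and 1.13 to 1.43 in IRI. Eif4ebp2 thus exceeded Eif4ebp1 in each sham library and fell short of it in each IRI library. The log2 ratio rose by 3.43 (p = 0.00794 in an exact permutation test, two-sided, n = 5 each, the smallest this design allows; adjusted over 12 paralog pairs, p = 0.0119). Of the 12 pairs compared, 10 passed. Apart from the added 0.1, a ratio within a library does not depend on how libraries are scaled.

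The tested eIF4E genes, Eif4e, Eif4e2 and Eif4e3, all rose, the canonical Eif4e least, and so did Eif4enif1, whose product binds eIF4E and not the cap. Eif4e (chr3:138231940-138265457) was at 13.3, 13.4, 12.02, 13.1 and 12.5 FPKM in sham and at 16.3, 18.1, 18.5, 17.2 and 18.5 in IRI, a log2 fold change of 0.21 ± 0.07 (adjusted p = 0.0229, edgeR). With no filter on low values, or with the replicate number as a block, Eif4e was not called (0.23 and 0.21). Eif4e2 (4EHP), which binds the cap but recruits no eIF4G and acts mainly as a repressor, was at 7.10, 6.97, 5.97, 7.33 and 7.35 FPKM in sham and at 11.1, 13.4, 13.1, 12.9 and 13.5 in IRI. Every IRI value lay above every sham value, at a log2 fold change of 0.63 ± 0.08.

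Eif4e3, an atypical cap-binding member, was at 2.92, 2.82, 3.17, 3.31 and 2.59 FPKM in sham and at 8.02, 8.17, 5.31, 7.56 and 9.78 in IRI (log2 fold change 1.14 ± 0.16). IRI replicate 3 was the lowest of its group and still above all sham libraries. Eif4enif1, whose product is called 4E-T and carries eIF4E into the nucleus and into processing bodies, was at 5.03, 4.98, 5.40, 4.75 and 5.60 FPKM in sham and at 8.28, 11.0, 7.36, 9.72 and 9.82 in IRI (0.59 ± 0.10), again without overlap. The whole Eif4enif1 locus is overlapped on the opposite strand by Drg1, which held 148% of its count. The sources used here do not say whether counting used strand. Without it, reads from exonic bases that both genes share cannot be told apart. The overlap is of whole gene spans, and how far the exons overlap was not computed.

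Within each library the canonical factor lost ground to its relatives. The ratio of Eif4e to Eif4e2 was 1.69 to 2.00 in sham and 1.32 to 1.47 in IRI (log2 ratio lower by -0.42). Against Eif4e3 it was 3.71 to 4.68 in sham and 1.88 to 3.44 in IRI (-0.88). Both differences had an adjusted p = 0.0119 in the exact permutation test (n = 5 each).

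**Figure D2:**
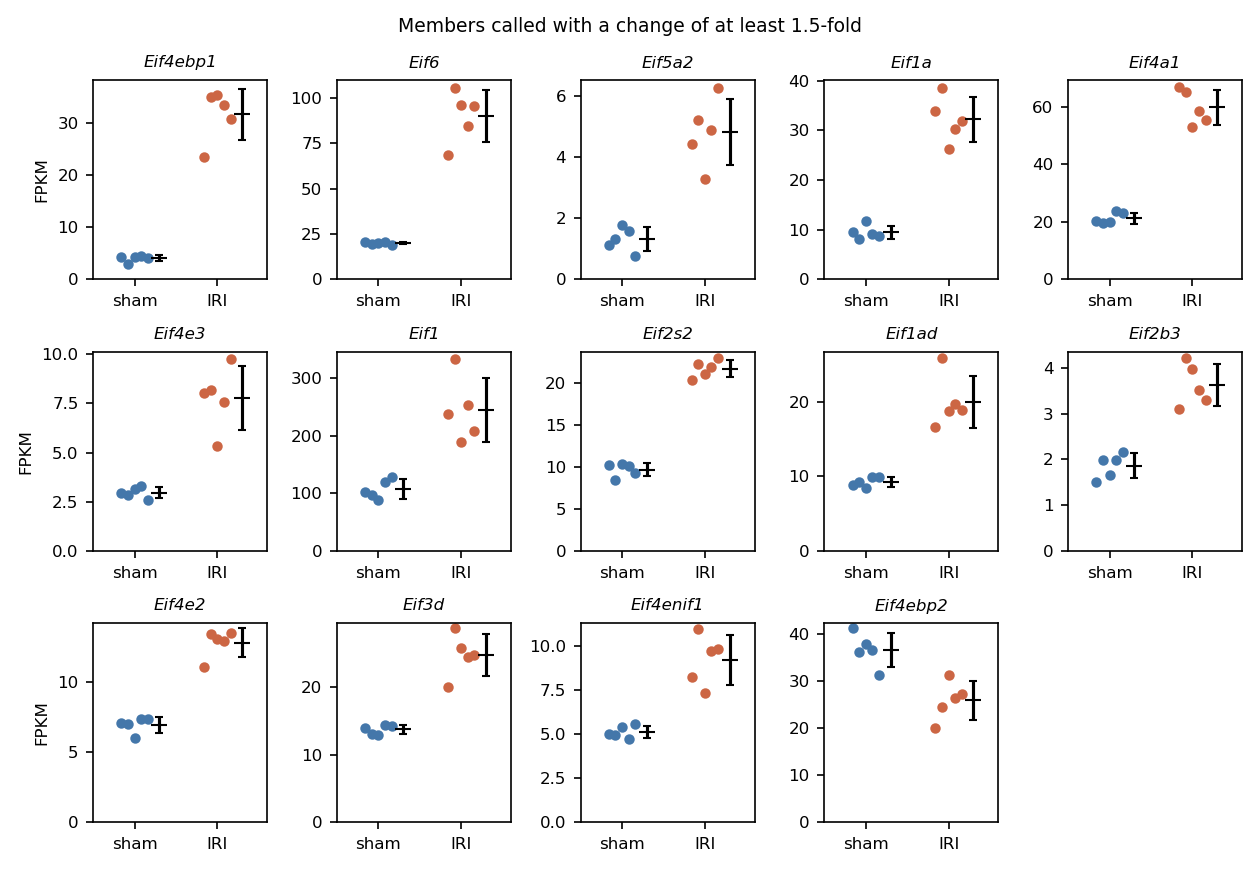
FPKM in each library (vertical axes, all starting at 0) of the 14 members called with a change of at least 1.5-fold; blue points are sham and orange points IRI replicates 1 to 5 from left to right, and black bars show mean ± SD (n = 5). In each of the 14 panels the groups do not overlap, and Eif4ebp2 is the one panel in which IRI lies below sham.

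Among the helicases that unwind messenger leaders, Eif4a1 rose and its close paralog Eif4a2 fell. Eif4a1 (ENSMUSG00000059796, chr11:69557762-69563249), the main eIF4A of growing cells, was at 20.3, 19.8, 19.8, 23.6 and 23.0 FPKM in sham and at 66.9, 65.1, 52.9, 58.6 and 55.4 in IRI. The lowest IRI value, 52.9, lay well above the highest sham value, 23.6. The log2 fold change was 1.24 ± 0.11 (adjusted p = 2.01e-06, edgeR), or 2.37-fold. Eif4a2 (chr16:22926194-22932886), the form prominent in differentiated tissue, was at 76.6, 84.7, 86.2, 80.1 and 85.2 FPKM in sham and at 72.3, 78.5, 63.8, 62.0 and 67.8 in IRI. IRI replicate 2 overlapped the sham range. The fall was also called with library totals, and the log2 fold change was -0.51 ± 0.10 (adjusted p = 0.000931, edgeR). The ratio of Eif4a1 to Eif4a2 went from 0.230 to 0.296 in sham to 0.816 to 0.944 in IRI, a rise of 1.75 on the log2 scale (adjusted p = 0.0119, exact permutation test). In sham kidneys Eif4a2 had the higher FPKM of the pair. Their order in IRI kidneys depends on a near-identical copy of Eif4a1, described next.

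The Eif4a1 count has a partner that reads may not separate. The locus Eif4a-ps4, left out of the members as a pseudogene (chr1:60743091-60744308), matches the Eif4a1 coding sequence at 1217 of 1218 bases, with an identical run of 684 bases. Eif4a2 matches it at 77.7% of bases, with no identical run longer than 20. The same stretch of coding sequence, from base 445 to 534 counted from the start codon of Eif4a1, is shown to compare them (GENCODE transcripts, build GRCm38, 5′ to 3′, with capitals at bases that differ from Eif4a1).
Eif4a1: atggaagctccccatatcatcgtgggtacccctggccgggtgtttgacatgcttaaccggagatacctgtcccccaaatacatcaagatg
Eif4a-ps4: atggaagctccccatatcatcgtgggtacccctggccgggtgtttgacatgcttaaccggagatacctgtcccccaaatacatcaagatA
Eif4a2: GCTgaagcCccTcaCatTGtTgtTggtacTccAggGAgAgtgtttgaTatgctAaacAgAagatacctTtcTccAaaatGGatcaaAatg
In this window Eif4a-ps4 differs from Eif4a1 at 1 base and Eif4a2 at 25 of 90. A read of 150 bases can therefore tell Eif4a2 from Eif4a1 at any place in the aligned coding sequence, while it can tell Eif4a-ps4 from Eif4a1 there only if it covers the single difference.

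Eif4a-ps4 held 30.5% to 38.0% of the summed count of both loci in sham and 27.3% to 34.7% in IRI, ranges that overlap. Its own log2 fold change was 1.00 ± 0.09, against 1.24 for Eif4a1. With the counts of both loci added, Eif4a1 had a log2 fold change of 1.16, nearly as large as for Eif4a1 counted alone. The level depended more on the copy. With its counts added, per exonic length of Eif4a1, the ratio to Eif4a2 was 0.369 to 0.440 in sham and 1.14 to 1.36 in IRI, so that Eif4a1 was above Eif4a2 in all 5 IRI libraries, where it was below Eif4a2 when counted alone. Which order holds cannot be told from these counts.

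**Figure D3:**
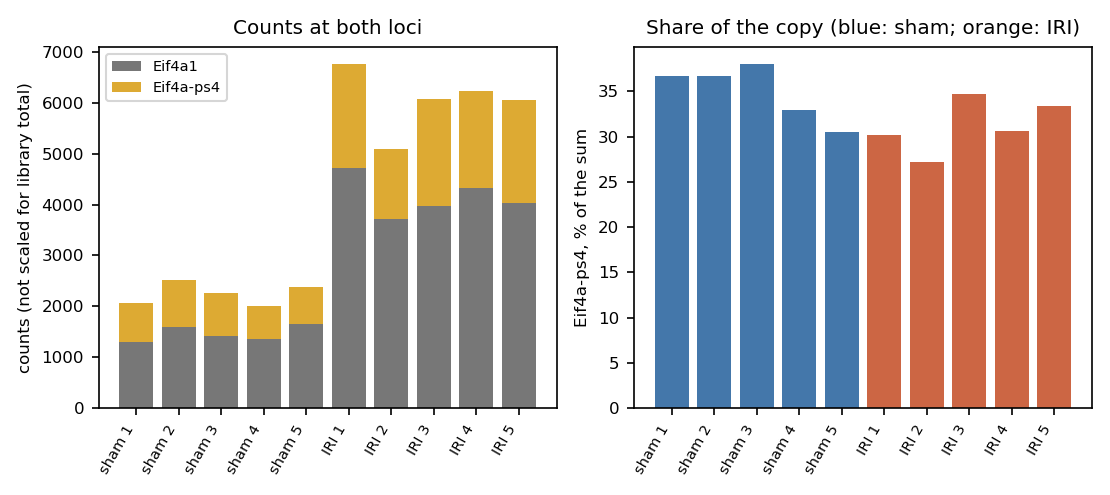
Left, deposited counts of Eif4a1 (grey) and of its near-identical copy Eif4a-ps4 (yellow) in each library, stacked and not scaled for library total; right, the copy's share of the sum in percent. The counts at both loci are higher in all IRI libraries, and the share of 27.3% to 34.7% in IRI overlaps that of 30.5% to 38.0% in sham.

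Of the other helicase genes, Eif4a3, whose product sits in the exon junction complex and not in eIF4F, rose by 0.44 ± 0.08 (23.4 to 29.3 FPKM in sham, 38.9 to 46.5 in IRI). The cofactors that stimulate eIF4A differed. Eif4h was at 35.0, 31.9, 35.8, 33.0 and 30.4 FPKM in sham and at 47.5, 57.8, 55.3, 56.1 and 59.4 in IRI, without overlap (0.48 ± 0.08). Eif4b was at 73.1, 67.5, 67.0, 66.7 and 54.9 FPKM in sham and at 66.0, 62.4, 73.5, 68.4 and 65.6 in IRI, with groups that overlapped and a log2 fold change of -0.22 ± 0.10 that was not called (adjusted p = 0.0702). Eif4b was called lower by DESeq2 (-0.24) and without sham replicate 5 (-0.27), while its value with library totals was 0.03. The ratio of Eif4b to Eif4h fell from 1.80 to 2.11 in sham to 1.08 to 1.39 in IRI (log2 difference -0.70, adjusted p = 0.0119, exact permutation test).

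The scaffold genes also parted. Eif4g1, which joins eIF4E, eIF4A, eIF3 and the poly(A)-binding protein, was at 47.3, 44.3, 49.5, 39.7 and 33.4 FPKM in sham and at 70.3, 59.9, 57.6, 62.8 and 69.7 in IRI. The groups did not overlap, but sham replicate 5 was low, and the log2 fold change of 0.33 ± 0.13 had an adjusted p = 0.0345. That call was lost without IRI replicate 1 (0.26), IRI replicate 5 (0.32), sham replicate 4 (0.32) or sham replicate 5 (0.27), and with the replicate block (0.34). Eif4g2 (DAP5), which lacks the eIF4E site and serves cap-independent initiation, was at 89.3, 83.4, 83.6, 77.6 and 71.1 FPKM in sham and at 98.6, 106, 96.3, 98.1 and 100 in IRI. It had a log2 fold change of 0.05 ± 0.10 and was not called, although its FPKM did not overlap: FPKM is scaled by library totals, and with that scaling edgeR gave 0.30.

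Eif4g3 was at 22.5, 22.0, 21.9, 20.4 and 21.7 FPKM in sham and at 18.8, 20.9, 18.1, 21.3 and 19.6 in IRI, with overlap, and fell by 0.39 ± 0.08 on the log2 scale (adjusted p = 0.00103, edgeR). The fall was not called with library totals (-0.13). The ratio of Eif4g1 to Eif4g3 was 1.54 to 2.26 in sham and 2.86 to 3.73 in IRI (log2 difference 0.73, adjusted p = 0.0119, exact permutation test). Against Eif4g2 the ratio of Eif4g1 was 0.470 to 0.593 in sham and 0.567 to 0.713 in IRI, ranges that overlap (0.28, adjusted p = 0.0191).

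**Figure D4:**
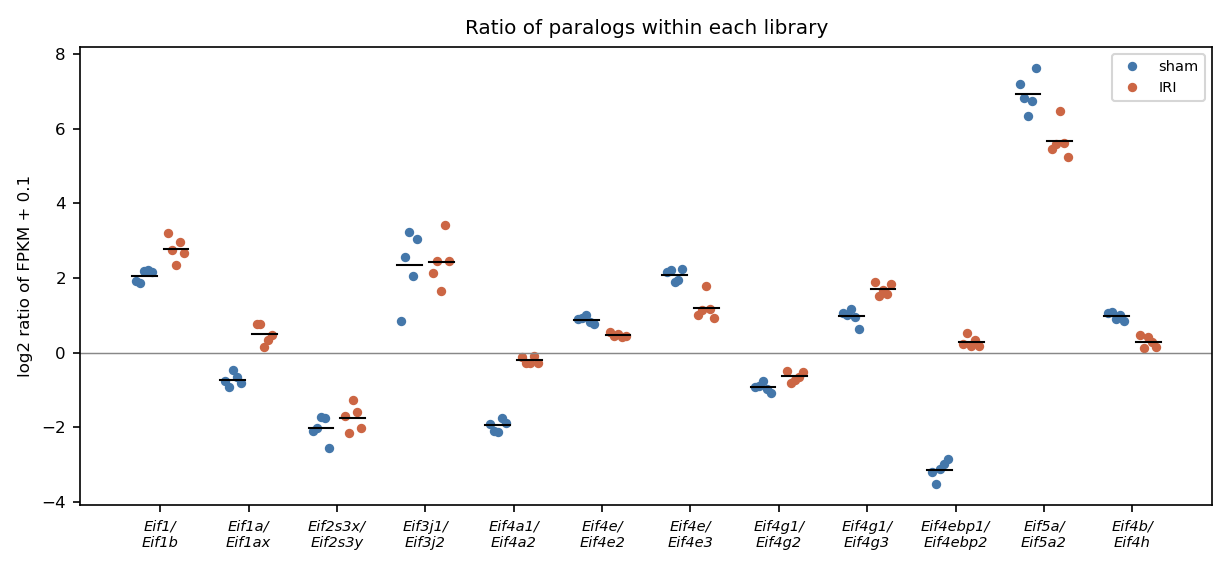
Log2 ratio of FPKM + 0.1 of the first gene to the second (vertical axis) in each library for 12 pairs of related Eif genes; blue points are sham, orange points IRI, and black lines the means (n = 5 each). Eif4ebp1/Eif4ebp2 moves by 3.43 and Eif4a1/Eif4a2 by 1.75, whereas Eif2s3x/Eif2s3y, Eif3j1/Eif3j2, Eif4g1/Eif4g2 and Eif5a/Eif5a2 overlap between groups.

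Of the genes for eIF1 and eIF1A, which keep the scanning subunit open and choose the start codon, Eif1, Eif1a and Eif1ax rose and Eif1b was not called. Eif1 (chr11:100210711-100212922), the gatekeeper of start codon choice, was at 102, 97.1, 88.5, 120 and 129 FPKM in sham and at 238, 334, 188, 253 and 208 in IRI. IRI replicate 2 was the highest, and all IRI values lay above the sham range (0.93 ± 0.17, adjusted p = 0.000333, edgeR). Its paralog Eif1b was at 26.9, 26.9, 19.6, 25.7 and 29.0 FPKM in sham and at 25.9, 49.96, 37.0, 32.2 and 32.8 in IRI, with overlap through IRI replicate 1, and was not called (0.21 ± 0.16), although it was with library totals (0.48). The ratio of Eif1 to Eif1b rose from 3.61 to 4.65 in sham to 5.08 to 9.14 in IRI (log2 difference 0.72, adjusted p = 0.0119, exact permutation test). The Eif1 coding sequence is also matched by transcripts listed under other names, including Emd over 343 aligned bases. The whole Emd gene had 8.84% of the Eif1 count, and reads from the matching stretch alone were not counted.

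Eif1a and Eif1ax are the autosomal and X-linked genes for eIF1A, which places the initiator tRNA. Eif1a was at 9.46, 8.22, 11.8, 9.2 and 8.72 FPKM in sham and at 33.9, 38.6, 26.3, 30.4 and 31.9 in IRI, a log2 fold change of 1.52 ± 0.13 (adjusted p = 1.03e-06, edgeR). Eif1ax was at 16, 15.8, 16.3, 14.6 and 15.3 FPKM in sham and at 19.8, 22.8, 23.8, 24.1 and 23.0 in IRI (0.29 ± 0.07). In both genes the groups did not overlap. Eif1ax was the more abundant of the pair in each sham library and Eif1a in each IRI library: their ratio went from 0.523 to 0.725 up to 1.10 to 1.71 (log2 difference 1.22, adjusted p = 0.0119, exact permutation test). Eif1ad, which has an eIF1A-like domain, was at 8.87, 9.22, 8.36, 9.96 and 9.86 FPKM in sham and at 16.6, 25.8, 18.7, 19.7 and 18.9 in IRI (0.85 ± 0.11), without overlap. It overlaps Banf1 on the opposite strand by 428 bases, and Banf1 as a whole held 145% of its count.

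The subunits of eIF2, the carrier of initiator tRNA, did not move as 1 unit. Eif2s2 (beta, chr2:154713330-154734855) was at 10.2, 8.51, 10.4, 10.1 and 9.31 FPKM in sham and at 20.4, 22.3, 21.1, 21.9 and 23.1 in IRI. Its libraries were tight within each group, and it rose by 0.91 ± 0.07 on the log2 scale (adjusted p = 8.95e-07, edgeR). A near-identical locus, Gm9892 (99.5% over 992 bases), held 18.8% of its count, and the value with both summed was 0.91. Eif2s1 (alpha), the subunit that stress kinases phosphorylate, rose less, by 0.45 ± 0.08, from 8.38 to 9.44 FPKM in sham to 13.7 to 15.8 in IRI.

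The gamma subunit comes from an X and a Y gene in male mice, and neither was called. Eif2s3x had a log2 fold change of 0.05 ± 0.13 and Eif2s3y of -0.22 ± 0.14. The ratio of Eif2s3x to Eif2s3y was 0.171 to 0.301 in sham and 0.224 to 0.414 in IRI (adjusted p = 0.234, exact permutation test), so the Y copy had the higher FPKM in every library. Eif2s3x shares 1347 identical bases with Gm2223, which held 23.7% of its count, and its level is uncertain to that extent.

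Of the single proteins that can bring a tRNA without eIF2, Eif2a, a gene distinct from the eIF2 alpha subunit, was not called (0.10 ± 0.06). Its FPKM did not overlap between groups (9.07 to 9.52 in sham, 10.6 to 12.6 in IRI), and Eif2a was called higher with library totals (0.36). Eif2d, also linked to recycling of the small subunit, fell by 0.38 ± 0.11 on the log2 scale (4.86 to 5.44 FPKM in sham, 3.60 to 5.51 in IRI, with overlap). The fall of Eif2d was not called with library totals (-0.13). Both genes overlap others on the opposite strand. Serp1 as a whole held 426% of the Eif2a count, but the gene spans share only 72 bases. Rassf5 as a whole held 22.0% of the Eif2d count, with 11249 bases of span shared. Reads inside the shared stretches were not counted.

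In eIF2B, the exchange factor for eIF2, 2 of 5 subunits rose, where 34.5% of all tested genes did, and none fell. With library totals 4 of 5 were called higher, beside 6322 of all 13324 tested genes. Eif2b3 (gamma, a catalytic subunit) was at 1.5, 1.98, 1.65, 1.98 and 2.17 FPKM in sham and at 3.11, 4.22, 3.98, 3.51 and 3.3 in IRI. The groups did not overlap (0.71 ± 0.13, adjusted p = 0.000448, edgeR), but Eif2b3 remained the lowest of the 5 subunits in each library. Eif2b2 (beta, regulatory) rose by 0.35 ± 0.09, while Eif2b1, Eif2b5 and Eif2b4 were not called, with log2 fold changes of 0.11, 0.06 and -0.02. With library totals Eif2b1 (0.37) and Eif2b5 (0.32) were called higher. Snx17, on the opposite strand of Eif2b4, as a whole held 243% of its count, but the gene spans share only 204 bases. Relative to the median of the 5 genes in the same library, Eif2b3 was at -2.97 to -2.58 in sham and at -2.30 to -1.86 in IRI on the log2 scale, and the other subunits overlapped between groups.

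The largest complex, eIF3, holds the small subunit open and bridges it to eIF4G. Of its 14 genes 8 rose, 2 fell and 4 were not called, while 34.5% of all tested genes were called higher and 32.4% lower. Eif3d, whose product can itself bind the cap of some messengers, was at 13.99, 13.02, 12.9, 14.4 and 14.3 FPKM in sham and at 19.9, 28.6, 25.8, 24.5 and 24.7 in IRI (0.59 ± 0.09, adjusted p = 7.16e-05, edgeR), without overlap. It was the only eIF3 gene past 1.5-fold, by a small margin at 1.51-fold, with Eif3b just under it at 1.49-fold.

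The subunits known as the core shared with yeast (a, b, c, g and i) were called higher in 5 of 5 cases, with log2 fold changes of 0.29 to 0.57. Of the outer subunits e, f, h, k, l and m, 1 rose, 2 fell and 3 were not called, with values from -0.31 to 0.37. With library totals 5 of 5 core and 3 of 6 outer subunits were called higher, Eif3l (0.43) and Eif3m (0.39) being added, and none lower. Of all 13324 tested genes, 6322 were higher and 3139 lower with that scaling. The grouping into core and outer subunits follows the known architecture but was made after the values were seen, and it was not tested. Eif3b rose from 41.6 to 45.01 FPKM in sham to 67.1 to 86.0 in IRI (0.57 ± 0.07), and Eif3c from 38.0 to 49.9 to 68.0 to 81.0 FPKM (0.51 ± 0.10). Eif3a, the largest subunit, rose by 0.31 ± 0.12 (adjusted p = 0.0301), a call lost without IRI replicate 1 (0.24), without IRI replicate 5 (0.31) or with the replicate block (0.31).

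Eif3h and Eif3k were the eIF3 genes called lower. Eif3h spanned 74.7 to 86.2 FPKM in sham and 76.6 to 83.7 in IRI, a nearly complete overlap, and had a log2 fold change of -0.26 ± 0.07 with TMM factors and of -0.01 with library totals, where it was not called. It was also not called with no filter on low values (-0.24). Eif3k spanned 36.0 to 42.6 FPKM in sham and 36.0 to 42.2 in IRI, with -0.31 ± 0.08 and, with library totals, -0.05 and no call. A direction for these genes therefore holds only relative to other genes, under the TMM scaling. That relative shift was seen inside the complex. Against the median of the 14 eIF3 genes in the same library, a measure free of library scaling, Eif3h went from 1.29 to 1.58 in sham to 0.97 to 1.11 in IRI on the log2 scale, and Eif3k from 0.31 to 0.58 down to -0.17 to 0.01. Eif3d, Eif3b and Eif3i moved the other way without overlap, with mean differences of 0.47, 0.45 and 0.17.

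**Figure D5:**
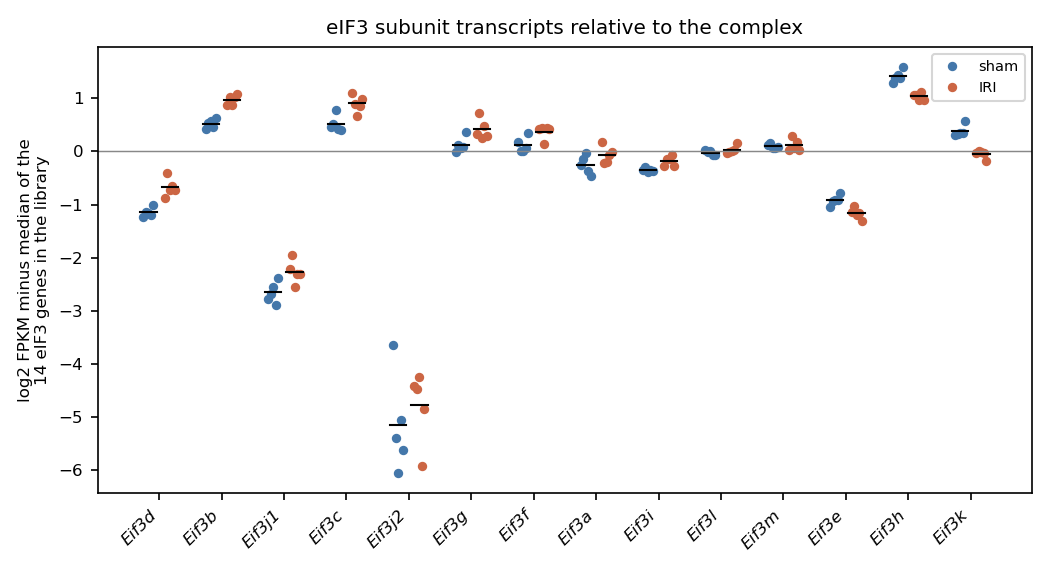
Log2 FPKM of each eIF3 gene minus the median of the 14 eIF3 genes in the same library (vertical axis), ordered by the difference of group means; blue points are sham, orange points IRI, and black lines the means (n = 5 each). Eif3d (difference 0.47) and Eif3b (0.45) shift up and Eif3h (-0.38) and Eif3k (-0.43) shift down without overlap, and Eif3j2 scatters widely at a low level.

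The loosely bound j subunit has 2 mouse genes that share 781 identical bases. Eif3j1 rose by 0.51 ± 0.10 (4.44 to 5.50 FPKM in sham, 7.29 to 9.72 in IRI). Eif3j2 ranged from 0.44 to 2.60 FPKM in sham and from 0.64 to 2.26 in IRI and was not called (0.31 ± 0.48). Sham replicate 1 held its highest value, and without it Eif3j2 was called higher at 0.98. The ratio of the 2 genes did not pass the test (adjusted p = 0.881, exact permutation test). With both summed the log2 fold change was 0.50. Spg11, on the opposite strand of Eif3j1, as a whole held 54.3% of its count, with 3079 bases of span shared.

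At the last steps of initiation, Eif5, which makes eIF2 hydrolyse its GTP at the start codon, rose from 48.4 to 52.0 FPKM in sham to 69.5 to 91.4 in IRI (0.45 ± 0.11). Eif5b, which joins the large subunit, ranged from 11.9 to 15.1 FPKM in sham and from 15.4 to 20.6 in IRI. It missed the threshold at 0.22 ± 0.09 (adjusted p = 0.0538, edgeR) and was called without IRI replicate 1 (0.25), IRI replicate 5 (0.24) or sham replicate 1 (0.28). Eif5b was also called higher with library totals (0.47) and with a filter of 5 FPKM (0.25). Rev1, on its opposite strand, as a whole held 9.48% of its count, with 2794 bases of span shared.

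The rarer form of eIF5A changed more than the common one. eIF5A carries hypusine and helps the ribosome through difficult stretches such as runs of proline. Eif5a2 (chr3:28835425-28852995) was at 1.14, 1.34, 1.79, 1.6 and 0.78 FPKM in sham and at 4.45, 5.22, 3.3, 4.9 and 6.26 in IRI, a log2 fold change of 1.61 ± 0.22 (adjusted p = 4.29e-05, edgeR). Eif5a was at 181, 162, 152, 181 and 174 FPKM in sham and at 199, 258, 301, 247 and 241 in IRI (0.29 ± 0.11, adjusted p = 0.0328). Neither gene overlapped between groups, and the call of Eif5a was lost without IRI replicate 2 (0.28), IRI replicate 3 (0.22), sham replicate 2 (0.30) or sham replicate 3 (0.26), with no filter (0.32) and with the replicate block (0.29). The ratio of Eif5a to Eif5a2 went from 80.7 to 198 in sham to 37.9 to 88.6 in IRI, with overlap of sham and IRI replicate 3 (log2 difference -1.26, adjusted p = 0.0191, exact permutation test). The size of that difference depended on the constant added to FPKM: it was -0.78 with 1 FPKM and -1.34 with 0.01 FPKM. Even after IRI, Eif5a exceeded Eif5a2 in each library by at least 37.9 times.

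Eif6 (ENSMUSG00000027613, chr2:155661752-155668845), which keeps large ribosomal subunits from joining small ones too early and also acts in their biogenesis, had the second largest change of the members. It was at 20.5, 19.8, 19.8, 20.4 and 19.1 FPKM in sham and at 68.7, 106, 95.9, 84.3 and 95.7 in IRI. The sham libraries were close together, and all IRI libraries lay far above them, with replicate 1 lowest. The log2 fold change was 1.92 ± 0.10 (adjusted p = 4.76e-08, edgeR), or 3.78-fold, above that of 96.0% of all tested genes.

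The genes that set eIF2 phosphorylation rose in 5 of 9 cases and fell in 1, against 34.5% and 32.4% of all tested genes. With library totals 8 of 9 were called higher and 0 lower, against 6322 and 3139 of all 13324 tested genes. Ppp1r15a, the stress-induced phosphatase subunit that restores eIF2, rose by 2.53 on the log2 scale, Eif2ak2 (PKR, activated by double-stranded RNA) by 1.07 and Eif2ak4 (GCN2, activated by uncharged tRNA) by 1.00. Eif2ak1, the kinase that senses haem, fell by 0.33, which was not called with library totals. The phosphatase catalytic subunits Ppp1cc and Ppp1cb were not called with TMM factors (0.19 and 0.14) and were called higher with library totals (0.44 and 0.40). Of 8 genes of the Atf4 branch, the arm that eIF2 phosphorylation favours, 7 rose, led by Trib3 (3.54), Atf5 (2.13) and Asns (2.09), and Atf4 itself had 1.92. Sesn2 was not called (-0.22). Phosphorylation itself was not measured.

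The mTORC1 and MAP kinase genes that control cap binding were mixed, with 7 of 17 higher and 3 lower. Among all tested genes 34.5% were called higher and 32.4% lower. With library totals 9 of the list were higher and 1 lower, beside 6322 and 3139 of all 13324 tested genes. Mlst8, a shared subunit of both mTOR complexes, rose by 0.80, Ddit4, an inhibitor of mTORC1, by 0.76, and Tsc1 by 0.45. Mtor itself fell by 1.45, Rps6kb2 by 0.48 and Tsc2 by 0.36, the last 2 not called with library totals. Of the poly(A) binding and scanning genes 3 of 10 were higher (Ddx3x 0.90, Pabpc4 0.90, Pabpc1 0.61), near the 34.5% of all tested genes, and 5 were lower. With library totals 5 were higher and 2 lower, so the list has no direction that both scalings share. Dhx29, a helicase for structured leaders, fell by 1.14, Paip2, an inhibitor of the poly(A)-binding protein, by 0.51, and Ybx1 by 0.40, the last not called with library totals. Dap5, listed there under its older name, is the member Eif4g2.

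Elongation and termination factors moved in both directions, as did all tested genes, of which 34.5% were called higher and 32.4% lower. Of 11 tested elongation genes 3 rose (Eef2k, the kinase that brakes elongation, 1.26; Eef1g 0.42; Eef1b2 0.39) and 4 fell, among them the mitochondrial factors Tufm, by 1.44, and Gfm1, by 0.75, and the selenocysteine factor Eefsec, by 0.91. The uncalled Eef1e1 and Eef2 had 0.20 and -0.18. Of 9 termination and recycling genes 4 rose, among them Gspt2 (1.47), Etf1 (0.77) and Denr (0.44), and Mcts1 fell by 0.64. Mitochondrial initiation had 2 of 3 genes lower, Mtif3 by 1.06 and Mtif2 by 0.61. With library totals, 4 elongation genes were higher and 3 lower, and 6 termination genes were higher and 1 lower. Of all 13324 tested genes, 6322 were higher and 3139 lower with that scaling. The median log2 fold changes were -0.04 for elongation, 0.27 for termination and -0.61 for mitochondrial initiation, beside 0.31 for the Eif members and 0.05 for all tested genes. The differences between these lists were not tested.

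RefSeq promoters (build GRCm38.p6, 250 bases before to 50 after a start) were available for 39 of the 50 tested members and held 51 starts. They were searched for CACGTG, the E-box bound by Myc with Max and by related factors. Of 5 tested genes of the Myc family, Myc rose by 3.39, Mycn by 0.87 and Max by 0.49, while Mxi1, an antagonist, fell by 0.93. At least 1 such E-box lay in the promoters of 10 of 39 members (25.6%), against 11.9% of 9603 tested genes with a promoter. By start, the shares were 23.5% of 51 and 7.15% of all 32851 promoters, which were not limited to tested genes and so are an unlike background. The 10 members were Eif1b, Eif3a, Eif3f, Eif3k, Eif4a1, Eif4e, Eif4g1, Eif4h, Eif5a and Eif5a2, of which 8 were called higher and 1 lower. Windows of 50 bases are shown for members that moved by different amounts or in different directions, in the direction of transcription, with the E-box in capitals. They lie at chr11:69672585-69672634 (minus strand) for Eif4a1, chr3:28781113-28781162 (plus) for Eif5a2, chr3:138527182-138527231 (plus) for Eif4e, chr16:20672651-20672700 (plus) for Eif4g1 and chr7:28981905-28981954 (minus) for Eif3k.
Eif4a1: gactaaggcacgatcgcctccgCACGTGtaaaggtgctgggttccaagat
Eif5a2: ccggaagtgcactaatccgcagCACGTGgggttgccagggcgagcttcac
Eif4e: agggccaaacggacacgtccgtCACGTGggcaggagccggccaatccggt
Eif4g1: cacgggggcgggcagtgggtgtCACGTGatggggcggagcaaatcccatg
Eif3k: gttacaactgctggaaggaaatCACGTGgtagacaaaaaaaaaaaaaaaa

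Having the motif did not go with being called higher across the kidney transcriptome: 35.2% of tested genes with the E-box were called higher and 35.9% of those without it. Among the 29 members with a promoter but no E-box, 15 were called higher and 4 lower. An ATF4 response element (TGATGNAAN, either strand) was found in 1 member of 39, Eif2s3x (2.56%), and in 2.49% of the tested genes with a promoter. A C at the start followed by 4 more pyrimidines, the mark of terminal oligopyrimidine messengers, was found in Eif2s3x and Eif3f (5.13% of 39 members), and in 3.05% of the tested genes. All promoters of the table held these at 3.95% and 2.51%. These matches describe letters in fixed windows and not binding.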

How the data were processed

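The deposited table holds whole-number counts per gene and FPKM for 10 libraries, with exonic lengths and GRCm39 coordinates. Per the labels' protocols, 1 µg of RNA was selected with oligo(dT) and read as pairs of 150 bases. The submitters' processing notes list cutadapt 1.9.1, HISAT2 2.0.1 and HTSeq 0.6.1 but not their roles. Each FPKM the authors deposited equalled count over exonic length and library total (100% of values within 0.005 or 0.1%), so FPKM carries no correction for composition.

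Symbols were matched by Ensembl identifier for 52083 of 55359 genes. Genes with at least 1 FPKM in 5 libraries (13324) were tested on the counts with edgeR 4.0.16 (R 4.3.3, quasi-likelihood, TMM), adjusted by the Benjamini-Hochberg method over all of them. Standard errors are log2 fold changes over the square root of F. Paralog ratios of FPKM + 0.1 were compared over 12 pairs by exact permutation of libraries. Limma 3.58.1 and DESeq2 1.42.0 were alternatives, as were filters, library totals, a replicate block and leaving out each library. Scripts were tested on simulated data. Copies were sought with blastn 2.17.0 (95% identity over 300 bases) and aligned with mafft 7.526; sums with copies were chosen after seeing the data. Values in every library are printed for called members past 1.5-fold and for paralogs whose ratio passed its test. Up to 3 higher, 3 lower and 2 uncalled genes are named per pathway list, with Atf4 and genes that share reads named besides. The members and lists were chosen with earlier results of these data known.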

Additional observations from a re-analysis of the deposited data

Results flagged for a closer look

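Dixon's criterion was applied to FPKM on the log scale, in 100 groups of 5 libraries (50 tested members in sham and IRI). In 4 groups, 1 library stood apart from the other 4. Chance alone sets apart about 1 group in 20. Eif4ebp1 was low in sham replicate 2, at 3.04 FPKM. Eif2s1 was low in sham replicate 2, at 8.38 FPKM. Eif4e2 was low in sham replicate 3, at 5.97 FPKM, and in IRI replicate 1, at 11.1 FPKM. All 4 values are lows on that scale, which spreads low values more than high ones. In none of these 3 genes did the groups overlap. Without any 1 library, the 3 genes were still called higher.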

How the results depend on the processing

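The 29 higher and 6 lower members became 13 and 1 at a change of at least 1.5-fold. The count of lower members was 2 with library totals and with limma on log2(FPKM + 0.1) or log2(FPKM + 1), which share that scaling. Leaving out 1 library at a time gave 28 to 32 higher and 6 to 7 lower members. With a filter of 5 FPKM, all genes called higher were 3044 and lower 2842, from fewer genes tested. Under the main filter of 1 FPKM, 2935 of 13324 genes were higher by at least 1.5-fold. In the orders library totals, limma + 0.1 and limma + 1, log2 values turned sign for Eif3e (0.13, 0.12, 0.12), Eif2b4 (0.23, 0.23, 0.21), Eif4b (0.032, 0.033, 0.033) and Eif2s3y (0.041, 0.016, 0.017). Eif2b4 was also at 0.0079 with the 5 FPKM filter and at 0.00054 with no filter. Without 1 library, Eif2b4 ranged from -0.054 to 0.023, Eif2s3x from -0.023 to 0.11 and the Eif3j1/Eif3j2 ratio from -0.29 to 0.30. Same-numbered sham and IRI libraries correlated at -0.25 to 0.06 in their deviations. No pairing by number was seen in this, but weak correlation cannot tell whether the numbers mark one. With the replicate block, edgeR called 25 members higher and 6 lower. Sign flips with the replicate block left the ratio differences at 0.72, 1.22, 1.75, -0.42, -0.88, 0.28, 0.73, 3.43, -1.26 and -0.70, but 5 pairs cannot give a p under 0.05 this way, which says nothing about stability. Depth limits Eif3j2 (17 to 93 counts per library) and Eif4ebp3 (32 to 105) most.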
